A study of Mus musculus with 12 samples.

Results

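Transcripts of 9 genes of the methionine cycle and of S-adenosylmethionine (SAM) metabolism were followed in 3 mouse melanocytic cell lines. The genes were Mat2a, Mat2b, Mettl16, Ahcy, Ahcyl1, Mtr, Mtrr, Mtap and Amd1, which were found by symbol as 9 of the 34513 genes in the count table. They were chosen by role, but with SX-682 results of these same libraries known: the changes of Mat2a and Ahcy were known when the set was selected on them, and they are given as descriptions with no test. For the other members, p-values are those of a fit across the whole table. The lines were Melan-A (MelanA in the labels), an immortalized non-tumorigenic melanocyte line, B16F0, a tumorigenic melanoma line, and B16F10, a metastatic derivative of the B16 melanoma. Cultures of each line were either untreated or treated with SX-682, an antagonist of the chemokine receptors CXCR1 and CXCR2, and each of the 6 groups had 2 libraries, 12 in all. The labels name no other agent. How much SX-682 these cultures received, and for how long, is not given in the sources used here. The comparison asked how the antagonist altered transcripts in the cells themselves, without stroma or immune cells. Each line is an established line with a history of its own, so a difference between lines holds for these cultures and not for melanocytes and melanomas at large.

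The methionine cycle turns methionine into SAM, the methyl donor of nearly all cellular methylation, and recovers methionine from what is left. Methionine adenosyltransferase makes SAM, methyltransferases use it and release S-adenosylhomocysteine, the hydrolase AHCY splits that into homocysteine and adenosine, and methionine synthase methylates homocysteine again. A side branch decarboxylates SAM for the synthesis of the polyamines spermidine and spermine, and its by-product methylthioadenosine is returned to methionine by the salvage pathway that MTAP opens. In most cells outside the liver, SAM controls its own synthesis through the Mat2a transcript, whose 3′ untranslated region holds hairpins that are bound and N6-methylated by METTL16.

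All 9 genes were well covered, with 1005 to 33034 counts in every library. The libraries held 48876982 to 85322092 counts each (median 66943832.5), and 3 counts, used as a floor, correspond to 0.033 to 0.0623 CPM (counts per 1000000 counts of the library, scaled with TMM factors). Replicates of a group differed by more than counting noise, with a chi-square per gene from 2.87 to 5.25. The labels do not say whether they are separate cultures, so the p-values measure only the spread between these samples, which may be technical. With 2 libraries against 2, an exact two-sided permutation test cannot go below p = 0.333, and so the replicate spread was estimated over all genes and groups in edgeR's quasi-likelihood fit, where the biological coefficient of variation was 2.78%, so that small changes passed. Of the 10 melanocytic marker genes, Sox10, Mitf, Dct and Tyrp1 were among those present in every library. All 10 together summed in untreated cells to 1355 to 1385 CPM in Melan-A, 19562 to 19658 in B16F0 and 25343 to 25377 in B16F10. Sox10 did not follow the sum, at 655 to 753 CPM in Melan-A libraries, 351 to 460 in B16F0 and 471 to 589 in B16F10. Pmel was at 7.53 to 8.70 CPM in Melan-A libraries, 4024 to 4548 in B16F0 and 3899 to 5350 in B16F10. Tyr had 19 to 77 counts and Kit 4 to 25 counts in Melan-A libraries, and Kit had 0 to 3 counts in B16F10. With SX-682 the sum was 1357 to 1364 CPM in Melan-A, 16474 to 16682 in B16F0 and 15373 to 15627 in B16F10. The 5 fibroblast markers summed to 52.9 to 60.9 CPM in Melan-A libraries and to 8.42 to 16.7 CPM in B16 libraries, where Lum and Dcn were at 0 to 3 counts. In Melan-A the sum was mostly Col1a1, at 45.7 to 47.1 CPM. Col1a2 went the other way, at 0.200 to 0.914 CPM in Melan-A, 1.64 to 2.72 in B16F0 and 3.38 to 5.79 in B16F10. Pdgfra was at 3.62 to 4.80 CPM in Melan-A, 5.60 to 8.38 in B16F0 and 1.24 to 1.80 in B16F10. Of the 2 immune markers in the table, Ptprc stayed at 0 to 22 counts in all libraries, while Cd68 was counted in every line and reached 45.3 CPM in Melan-A with SX-682 from 15.9 CPM at its lowest in that line. The 3 keratinocyte and 2 endothelial markers summed to at most 0.759 and 2.15 CPM. The part of these differences in the results below was not tested, and in bulk RNA fewer cells of a type and less RNA per cell cannot be told apart.

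The control element of Mat2a was read from the deposited build's annotation. Mat2a lies at chr6:72432799-72439558 on the minus strand of GRCm38. Its spliced transcript Mat2a-201 has 9 exons and 2804 bases, of which 1494 form the 3′ untranslated region, and that region holds 6 copies of the METTL16 nonamer UACAGAGAA or UACAGAAAA. The 6 sites are shown because they set Mat2a apart from the other members. Each is printed 5′ to 3′ on the transcript strand with T in place of U, the nonamer in capitals and 8 bases on either side, followed in the next sentences by its place.
Mat2a site 1: gcgtaggtTACAGAGAAgccttcaa
Mat2a site 2: ttgtgataTACAGAGAAgtcacagg
Mat2a site 3: ggtgtagcTACAGAGAAaccagctt
Mat2a site 4: ggcgtaagTACAGAGAAgccatcac
Mat2a site 5: aggtgtccTACAGAAAAaccttggg
Mat2a site 6: tggtgtggTACAGAGAAgccagctt
The nonamer of site 1 lies at chr6:72434245-72434253 and starts 40 bases after the stop codon. The other 5 lie farther along the same last exon, at chr6:72433461-72433469, chr6:72433282-72433290, chr6:72433167-72433175, chr6:72433056-72433064 and chr6:72432948-72432956, and start 824, 1003, 1118, 1229 and 1337 bases after the stop codon. In 5 sites the nonamer reads UACAGAGAA and in 1, site 5, it reads UACAGAAAA. Of 16919 protein-coding genes with a transcript of at least that length, 680 (4.02%) held at least 1 such nonamer in their last 1494 transcript bases and 12 (0.0709%) held at least 2. Mat2a was the only gene with 6, the next highest number was 4, and the other 8 members held 0. A match of letters is no measurement of binding or methylation.

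**Figure D1:**
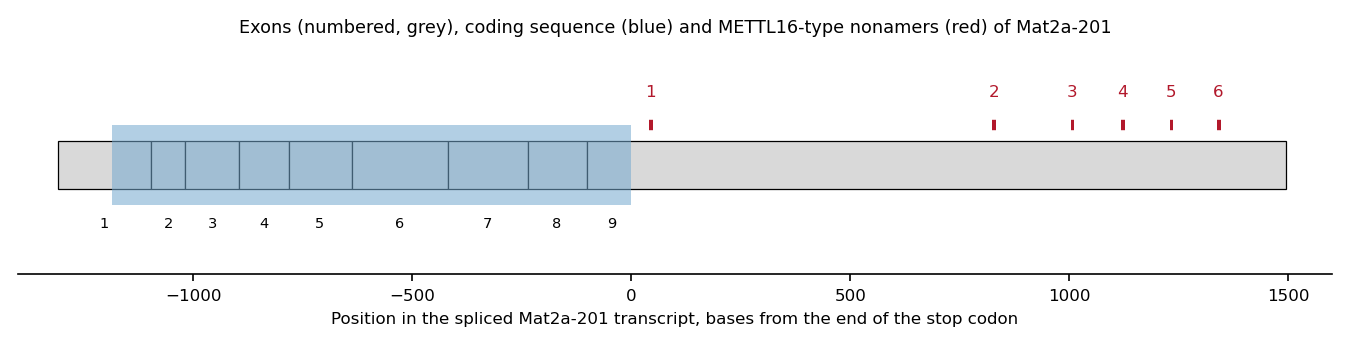
Map of the spliced Mat2a-201 transcript, with the position in bases from the end of the stop codon on the horizontal axis. Grey boxes are the 9 exons, numbered below, blue is the coding sequence and red marks the 6 nonamers, of which site 1 stands alone 40 bases after the stop codon and sites 2 to 6 start between 824 and 1337 bases after it.

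The intron just before site 1, at chr6:72434396-72434980 with 585 bases, is the last of Mat2a-201, and the annotated transcript Mat2a-202 keeps it. The deposited counts pool both forms, so intron retention was not measured. Mat2a also overlaps an antisense transcript, Particl, which runs across the Mat2a start on the plus strand at chr6:72439051-72440610. The pair shares 508 exon bases, 11.3% of the Mat2a exon bases and 32.6% of those of Particl. The treatment of strand in the counting is not given in the sources used here, so reads of the pair over these bases cannot be told apart. Ahcy and Mtap share 0 exon bases with the genes annotated across them, Gm45609 and Gm12607.

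Per length of exon, Mtap and Ahcy were the most abundant of the 9 transcripts in every group, and Mtr, Mtrr and Mettl16 the least. Levels of different genes are compared as CPM divided by the exon length in kilobases (RPKM). That length is the union of all annotated exons, 13.8 kb for Mettl16, so the order of genes depends on it. In untreated Melan-A cells the mean levels descended from Ahcy at 61.9 RPKM over Mtap at 57.8, Mat2a at 40.2, Ahcyl1 at 22.2, Amd1 at 18.2, Mat2b at 18.0, Mettl16 at 6.46 and Mtr at 3.65 to Mtrr at 2.65 RPKM. Amd1 and Mat2b overlapped there, and every other pair of neighbours was separated by more than the spread of its 2 libraries. Untreated B16F0 and B16F10 had Mtap first, at 96.1 and 161 RPKM, Ahcy next, at 82.8 and 51.9 RPKM, then Mat2a at 40.4 and 44.4 RPKM, and Amd1 in the fourth place at 37.2 and 39.7 RPKM, with no overlap between neighbours. With SX-682, Mat2a dropped from the third place to the fifth in Melan-A (12.4 RPKM) and B16F0 (10.1 RPKM) and to the sixth in B16F10 (6.23 RPKM). Ahcyl1 took the third place in all 3 lines, at 24.9, 45.3 and 30.3 RPKM in Melan-A, B16F0 and B16F10.

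**Figure D2:**
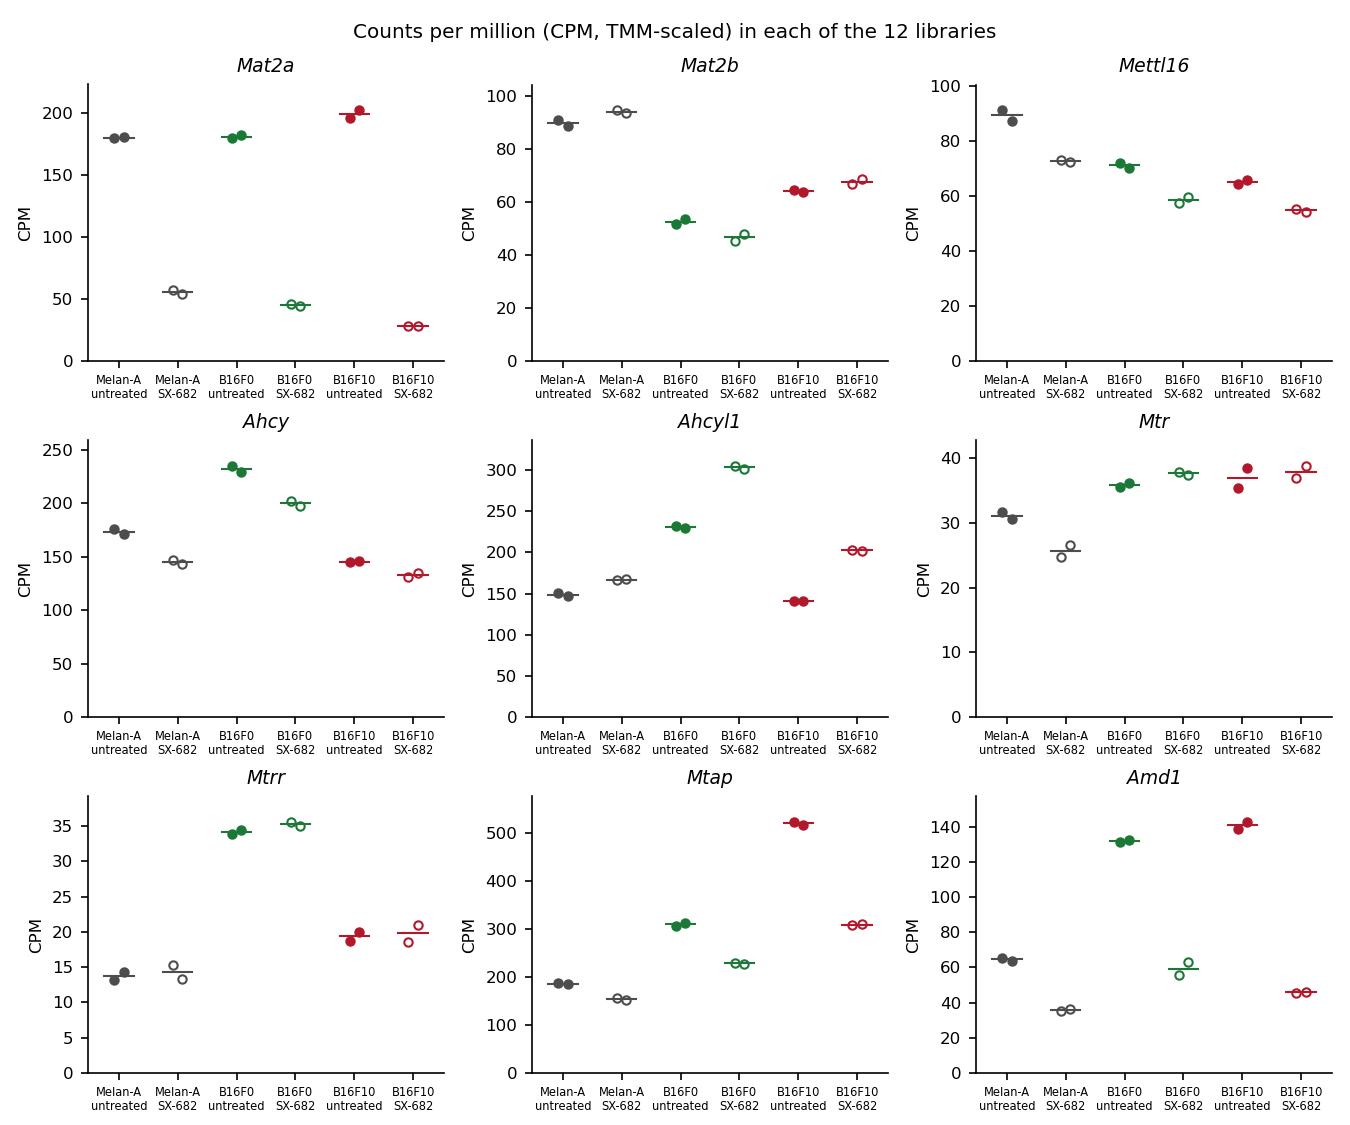
Level of each gene in CPM (vertical axis, starting at 0) in the 12 libraries, by line and treatment on the horizontal axis. Filled points are untreated and open points SX-682 libraries, and each bar is the mean of 2. The treated Mat2a libraries, at 27.8 to 57.6 CPM, all lie below the untreated ones, at 180 to 203 CPM, while the Mtrr panel separates lines rather than treatments.

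Of the 9 members, SX-682 lowered 6 and raised 1 in Melan-A, lowered 6 and raised 1 in B16F0, and lowered 5 and raised 1 in B16F10, by edgeR's quasi-likelihood test at an adjusted p under 0.05. Over the 18338 genes tested, 24.7% were lower and 23.4% higher in Melan-A, 25.0% lower and 25.1% higher in B16F0, and 25.3% lower and 25.5% higher in B16F10. Mat2a, Mettl16, Ahcy, Mtap and Amd1 were lower and Ahcyl1 higher in all 3 lines, against 11.7% and 11.3% of all genes lowered and raised in all 3. Mat2a and Ahcy are counted among the lower genes of each line as descriptions only. Since the set was selected on such values, nothing is read from these counts. The median log2 fold change of the 9, Mat2a and Ahcy included, was −0.28 for Melan-A, −0.21 for B16F0 and −0.13 for B16F10. Over all genes it was 0 in each line, and nothing is read from the medians of this selected set. Leaving out Mat2a and Ahcy, the size of the change differed among the lines for 5 of the other 7 members in a joint F-test of the 3 changes, beside 47.4% of all genes. The mean change of the B16 lines lay above that of Melan-A for 2 of the 7 and below it for 3, beside 18.7% and 17.1% of all genes, and 1 of the 3, Mat2b, lost its call in 8 of the alternatives.

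**Figure D3:**
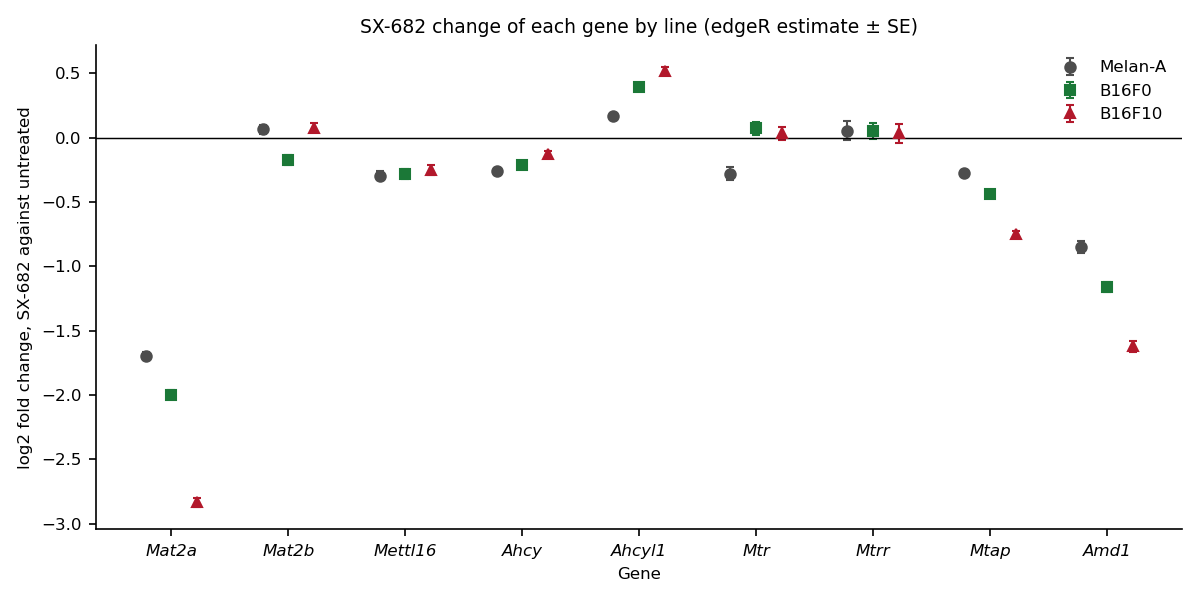
SX-682 change of each gene as a log2 fold change against untreated cells of the same line (vertical axis), with 2 libraries against 2. Points are edgeR estimates and bars their standard errors, circles are Melan-A, squares B16F0 and triangles B16F10. Mat2a, Mtap and Amd1 lie lowest in B16F10 and highest in Melan-A, and Ahcyl1 has the opposite order.

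Mat2a encodes the catalytic subunit of the methionine adenosyltransferase of non-hepatic cells and was the member with the lowest log2 fold change under SX-682. Its level was 180 and 180 CPM in untreated Melan-A and 57.6 and 53.7 CPM with SX-682. In B16F0 it was 180 and 182 CPM untreated and 46.1 and 44.5 CPM treated. In B16F10 it was 196 and 203 CPM untreated and 27.8 and 28.1 CPM treated. The untreated libraries of the 3 lines lay close together, every treated library lay below every untreated one, and the treated lines did not overlap each other. In the 3 lines, taken in the same order, the treated level was 0.309, 0.2503 and 0.140 of the untreated one, with log2 fold changes of −1.70 (SE 0.033), −1.998 (SE 0.035) and −2.83 (SE 0.037). Among the 9909 genes with an average log2 CPM of at least 3, ranked by change, Mat2a was the 18th from the lowest in Melan-A, the 20th in B16F0 and the 7th in B16F10. The changes spanned 1.14 log2 units, the widest span of the 9 members, and the B16 lines together lay 0.72 log2 units below Melan-A. In untreated cells Mat2a was 0.15 log2 units (SE 0.031) higher in B16F10 than in Melan-A (edgeR adjusted p = 0.00011) and 0.14 higher than in B16F0 (edgeR adjusted p = 0.00026). B16F0 and Melan-A differed by 0.01 (SE 0.031, edgeR adjusted p = 0.841), a difference whose sign turned with the scaling.

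Particl, the antisense RNA at the Mat2a promoter, was added because of this overlap after its values were seen. It had 395 and 416 counts in untreated and 420 and 441 in treated Melan-A libraries, 130 and 191 against 219 and 162 in B16F0, and 376 and 336 against 460 and 504 in B16F10. With SX-682 it rose by 0.36 log2 units (SE 0.14, edgeR adjusted p = 0.037) in Melan-A, by 0.56 (SE 0.17, adjusted p = 0.0075) in B16F0 and by 0.50 (SE 0.14, adjusted p = 0.0042) in B16F10, the opposite direction to Mat2a. As a share of the Mat2a counts of the same library, Particl stood at 0.964% to 3.17% in untreated libraries. In treated libraries the share was 10.2% to 10.9% in Melan-A, 7.21% to 7.57% in B16F0 and 27.3% to 30.7% in B16F10. Most of this rise came from Mat2a, whose change was known beforehand.

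Mat2b, at chr11:40679314-40695203 on the minus strand, encodes the regulatory subunit that binds the MAT2A enzyme. Its level was 91.1 and 88.7 CPM in untreated and 94.8 and 93.4 CPM in treated Melan-A, and 64.4 and 63.9 against 66.8 and 68.6 CPM in B16F10. Neither change passed the test, with log2 fold changes of 0.07 (SE 0.035, edgeR adjusted p = 0.120) and 0.08 (SE 0.037, adjusted p = 0.0888). In B16F0 it went from 51.6 and 53.5 to 45.4 and 48.0 CPM and fell by 0.17 log2 units (SE 0.039, edgeR adjusted p = 0.00048). The 3 changes differed among the lines (joint F-test in edgeR, adjusted p = 0.0003, span 0.248). The contrast of the B16 lines with Melan-A was −0.11 (SE 0.044, edgeR adjusted p = 0.0442), and this call was lost in 8 of the alternatives, among them each of 7 libraries left out, with adjusted p up to 0.136 without replicate 2 of untreated Melan-A. Untreated Mat2b was highest in Melan-A: it was 0.78 log2 units lower in B16F0 (SE 0.036, edgeR adjusted p = 4.6e-18) and 0.49 lower in B16F10 (SE 0.036, adjusted p = 3.5e-13).

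The length-scaled ratio of Mat2b to Mat2a, taken within each library, was 0.454 and 0.441 in untreated Melan-A and 1.48 and 1.56 with SX-682. It was 0.257 and 0.263 untreated and 0.884 and 0.968 treated in B16F0. In B16F10 it was 0.295 and 0.283 untreated and 2.15 and 2.19 treated. By these lengths the regulatory transcript was the scarcer in every untreated library, and in treated Melan-A and B16F10 it exceeded the catalytic one. The lengths used were exon unions, 4486 bases for Mat2a and 5001 for Mat2b, while spliced Mat2a-201 has 2804. Which of the pair is higher can therefore depend on the length used. Undivided by length, the count ratio was 0.286 to 0.506 in untreated libraries and 2.40 and 2.44 in treated B16F10. It was 1.65 and 1.74 in treated Melan-A and 0.986 and 1.08 in treated B16F0. The mean ratio was 3.39 times the untreated one in Melan-A, 3.56 times in B16F0 and 7.52 times in B16F10, most of which came from Mat2a, whose change was known beforehand.

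**Figure D4:**
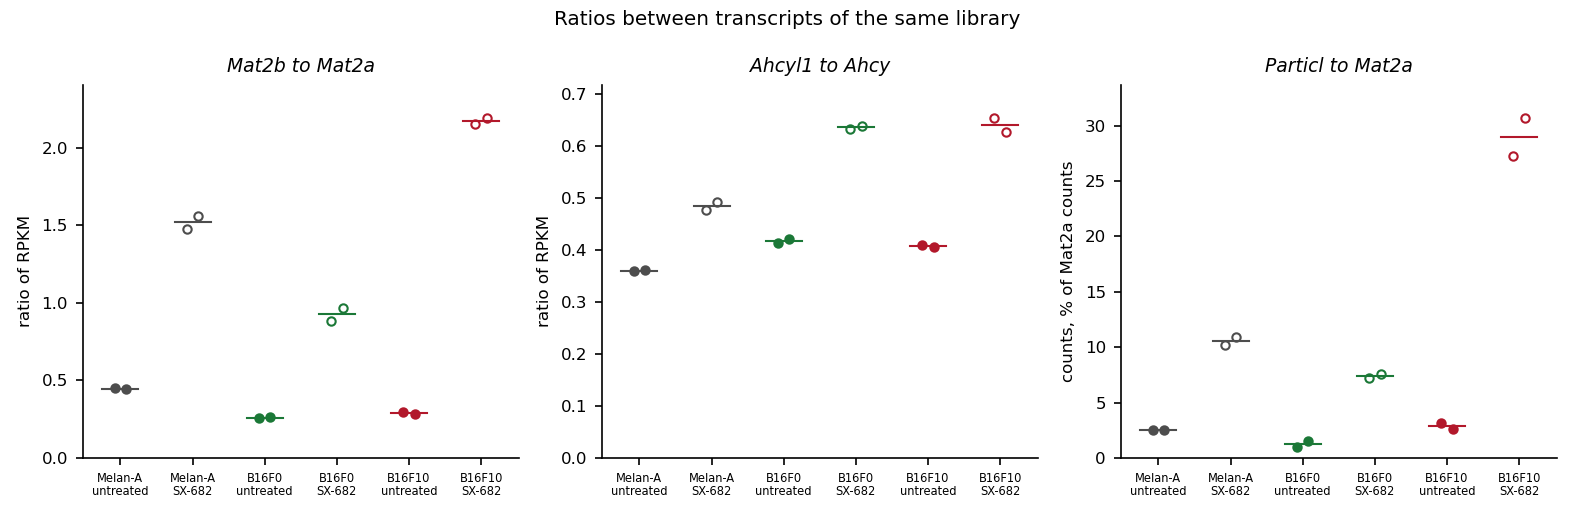
Ratios of transcripts within each of the 12 libraries, by line and treatment, on axes that start at 0. The left panel shows Mat2b to Mat2a and the middle panel Ahcyl1 to Ahcy, both as ratios of RPKM, and the right panel Particl counts as a percentage of Mat2a counts. Filled points are untreated, open points SX-682, bars are means of 2, and all treated libraries lie above the untreated ones of their line.

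Mettl16, at chr11:74770830-74828525 on the plus strand, encodes the methyltransferase that binds the Mat2a hairpins and also methylates U6 small nuclear RNA. It was 91.3 and 87.1 CPM in untreated and 72.8 and 72.3 CPM in treated Melan-A, 71.9 and 70.1 against 57.4 and 59.4 CPM in B16F0, and 64.2 and 65.8 against 55.3 and 54.1 CPM in B16F10. The groups of a line did not overlap. It fell by 0.30 log2 units (SE 0.035, edgeR adjusted p = 2.4e-08) in Melan-A, 0.28 (SE 0.037, adjusted p = 1.7e-07) in B16F0 and 0.25 (SE 0.038, adjusted p = 1.7e-06) in B16F10. A difference of these falls among the lines was not shown (joint F-test in edgeR, adjusted p = 0.751). Untreated Mettl16 was 0.33 log2 units lower in B16F0 and 0.46 lower in B16F10 than in Melan-A (edgeR adjusted p = 1.3e-09 and 1.6e-12). It was 0.13 lower in B16F10 than in B16F0 (edgeR adjusted p = 0.0035), which no longer passed without replicate 1 of untreated B16F0 (adjusted p = 0.0655) or replicate 1 of untreated B16F10 (adjusted p = 0.0595).

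Ahcy, at chr2:155059310-155074497 on the minus strand, encodes the hydrolase of S-adenosylhomocysteine, the product that inhibits methyltransferases. It was 176 and 171 CPM in untreated and 146 and 143 CPM in treated Melan-A, 235 and 229 against 203 and 198 CPM in B16F0, and 145 and 146 against 131 and 135 CPM in B16F10. The treated libraries lay below the untreated ones of their line throughout. The log2 fold changes were −0.26 (SE 0.028) in Melan-A, −0.21 (SE 0.028) in B16F0 and −0.13 (SE 0.029) in B16F10. As point estimates these ran in the order of lines opposite to that of Mat2a, Mtap and Amd1. Under the alternatives the values of Melan-A (−0.2795 to −0.2345) and B16F0 (−0.2354 to −0.1933) overlapped. Untreated Ahcy was highest in B16F0, 0.42 log2 units (SE 0.028) above Melan-A (edgeR adjusted p = 2.2e-14), and lowest in B16F10, 0.25 (SE 0.028) below Melan-A (edgeR adjusted p = 3.0e-09).

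Ahcyl1, at chr3:107663118-107696560 on the minus strand, encodes an AHCY-like protein, also called IRBIT, that lacks known hydrolase activity and regulates inositol trisphosphate receptors. It was the member that rose. Its level went from 150 and 147 to 166 and 167 CPM in Melan-A, from 232 and 229 to 306 and 301 CPM in B16F0 and from 141 and 141 to 204 and 201 CPM in B16F10. The log2 fold changes were 0.17 (SE 0.025, edgeR adjusted p = 2.5e-06), 0.40 (SE 0.025, adjusted p = 4.3e-14) and 0.52 (SE 0.026, adjusted p = 1.4e-16). They differed among the lines (joint F-test in edgeR, adjusted p = 9.9e-09), with the B16 lines 0.29 log2 units above Melan-A (SE 0.031, adjusted p = 8.1e-09). The ratio of Ahcyl1 to Ahcy per length went from 0.359 and 0.360 to 0.475 and 0.492 in Melan-A, from 0.413 and 0.420 to 0.632 and 0.638 in B16F0 and from 0.410 and 0.405 to 0.652 and 0.626 in B16F10. In untreated cells Ahcyl1 stood 0.63 log2 units higher in B16F0 than in Melan-A (SE 0.025, edgeR adjusted p = 1.0e-19). It was 0.07 lower in B16F10 than in Melan-A (SE 0.026, edgeR adjusted p = 0.0119), which no longer passed without a filter on low counts (adjusted p = 0.142), nor without replicate 1 of untreated Melan-A (0.138), replicate 1 of untreated B16F10 (0.0662) or replicate 2 of untreated B16F10 (0.0971). Its close relative Ahcyl2 rose too, by 0.37, 0.28 and 0.28 log2 units in Melan-A, B16F0 and B16F10 (edgeR adjusted p = 7.0e-11, 9.2e-09 and 4.2e-09).

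Mtr, at chr13:12182712-12258113 on the minus strand, encodes methionine synthase, which moves a methyl group from folate to homocysteine with cobalamin as its cofactor. It was 31.7 and 30.6 CPM in untreated and 24.7 and 26.5 CPM in treated Melan-A, and fell there by 0.28 log2 units (SE 0.052, edgeR adjusted p = 4.0e-05). In the B16 lines its values were 35.5 and 36.2 against 37.9 and 37.4 CPM in B16F0 and 35.5 and 38.5 against 36.9 and 38.9 CPM in B16F10, the last pair of groups overlapping. Neither passed the test, with 0.07 (SE 0.052, edgeR adjusted p = 0.271) and 0.03 (SE 0.052, adjusted p = 0.633). The difference of the B16 lines from Melan-A was 0.33 log2 units (SE 0.064, edgeR adjusted p = 9.7e-05).

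Mtrr, at chr13:68560780-68582149 on the minus strand, encodes the reductase that reactivates methionine synthase, and it was the member with the least response. It had 13.2 and 14.4 CPM in untreated and 15.3 and 13.4 CPM in treated Melan-A, 33.8 and 34.5 against 35.6 and 35.0 CPM in B16F0, and 18.8 and 19.95 against 18.6 and 20.98 CPM in B16F10. The groups overlapped in Melan-A and B16F10. The log2 fold changes were 0.05 (SE 0.071), 0.05 (SE 0.063) and 0.03 (SE 0.070), with edgeR adjusted p of 0.573, 0.556 and 0.764. Between untreated lines it varied more than most members: it was 1.31 log2 units higher in B16F0 than in Melan-A (SE 0.066, edgeR adjusted p = 4.0e-17) and 0.82 lower in B16F10 than in B16F0 (SE 0.066, adjusted p = 5.0e-12). Untreated Mtr and Mtrr were both higher in the B16 lines than in Melan-A, Mtr by 0.20 in B16F0 and 0.25 in B16F10 (edgeR adjusted p = 0.00063 and 7.4e-05) and Mtrr by 0.49 in B16F10 (adjusted p = 3.5e-07).

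Amd1, at chr10:40287458-40302188 on the minus strand, encodes adenosylmethionine decarboxylase, which commits SAM to polyamine synthesis. Its level went from 65.5 and 63.6 to 35.4 and 36.2 CPM in Melan-A, from 131 and 133 to 55.5 and 63.1 CPM in B16F0 and from 139 and 143 to 45.4 and 46.1 CPM in B16F10. The untreated B16 libraries were all above those of Melan-A, and every treated library lay below all the untreated ones. It fell by 0.85 log2 units (SE 0.043, edgeR adjusted p = 3.1e-16) in Melan-A, 1.16 (SE 0.041, adjusted p = 5.3e-20) in B16F0 and 1.62 (SE 0.042, adjusted p = 2.1e-23) in B16F10. The falls differed among the lines (joint F-test in edgeR, adjusted p = 4.2e-11), and the B16 contrast with Melan-A was −0.54 (SE 0.052, adjusted p = 1.1e-09). Untreated Amd1 was 1.03 log2 units higher in B16F0 and 1.13 higher in B16F10 than in Melan-A (SE 0.039 and 0.040, edgeR adjusted p = 3.2e-20 and 4.2e-21). B16F10 exceeded B16F0 by 0.09 (adjusted p = 0.0337), which did not pass without replicate 1 (adjusted p = 0.106) or 2 (0.0679) of untreated B16F0 or replicate 2 of untreated B16F10 (0.15), nor over genes with at least 10 counts in every library (0.0894). Reads of Amd1 may be split with near-identical copies. Amd2 and 6 Amd pseudogenes held counts worth 7.66% to 8.47% of those of Amd1 in Melan-A libraries and 1.59% to 1.98% in B16 libraries.

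Mat2a and Amd1 had the lowest log2 fold changes of the set in every line, and their promoters were compared for that reason. The 100 bases before their annotated starts in RefSeq (GRCm38.p6) are printed 5′ to 3′ on the gene's strand, with a TATA match in capitals. They come from chr6:72439557-72439656 for Mat2a and chr10:40302189-40302288 for Amd1, both on the minus strand.
Mat2a promoter: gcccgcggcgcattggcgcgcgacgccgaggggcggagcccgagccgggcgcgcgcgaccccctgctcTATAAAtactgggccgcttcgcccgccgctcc
Amd1 promoter: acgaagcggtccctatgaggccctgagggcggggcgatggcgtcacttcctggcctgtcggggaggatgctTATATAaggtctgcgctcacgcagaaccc
The match starts 32 bases before the start in Mat2a and 29 bases before it in Amd1. TATAAA or TATATA was searched on the sense strand within 60 bases of the start, a search chosen after these sequences were seen. A match before at least 1 annotated start occurred in 4.85% of 27025 genes and in 2 of the 9 members. In 250 bases upstream and on both strands, the E-box CACGTG was found in 0 members and 6.86% of these genes. The CARE motif TGATGNAA was found in 0 members and 3.91% of genes. The cyclic AMP element TGACGTCA was found in 1 member, Ahcyl1, and 1.77% of genes. These matches describe letters only.

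Mtap, at chr4:89137122-89181081 on the plus strand, encodes methylthioadenosine phosphorylase, the first enzyme of methionine salvage, a gene often deleted together with Cdkn2a in human tumors. Untreated levels were 187 and 186 CPM in Melan-A, 307 and 313 CPM in B16F0 and 524 and 517 CPM in B16F10, so that the lines were fully separated. Mtap was 0.73 log2 units higher in B16F0 (SE 0.024, edgeR adjusted p = 6.7e-22) and 1.48 higher in B16F10 (SE 0.024, adjusted p = 1.5e-29) than in Melan-A, the widest difference of the 9 members between untreated B16F10 and Melan-A. With SX-682 the levels were 156 and 152 CPM in Melan-A, 230 and 228 CPM in B16F0 and 309 and 310 CPM in B16F10. It fell by 0.28 log2 units (SE 0.025, edgeR adjusted p = 8.6e-11), 0.44 (SE 0.024, adjusted p = 2.1e-15) and 0.75 (SE 0.024, adjusted p = 2.5e-21) in these lines, and the falls differed (joint F-test in edgeR, adjusted p = 5.1e-12). Treated B16F10 still had more Mtap, 95.9 RPKM on average, than untreated Melan-A at 57.8 RPKM.

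The genes around Mtap had another pattern. Cdkn2a, which encodes the cell cycle inhibitor p16 and ARF and begins 93.4 kb after Mtap, had 15302 to 17002 counts in Melan-A libraries and 0 in all 8 B16 libraries. Cdkn2b had 3617 to 5387 counts in Melan-A and 0 in the same 8, and Elavl2, 2070 kb away, 212 to 423 and 0. Set against a floor of 3 counts per library, untreated B16 levels were at least 3761-fold lower for Cdkn2a, at least 844-fold lower for Cdkn2b and at least 87.0-fold lower for Elavl2. Dmrta1 had 52 to 73 counts in Melan-A and 0 to 1 in B16. Of the 4 listed genes on the other side of Mtap, Klhl9, Hacd4, Focad and Mllt3, all were counted in every library, Hacd4 least with 32 to 768 counts. These 8 neighbours were listed with the series' results known, and whether DNA is missing there was not measured. Changes are given for Mllt3 and Focad because they passed the test in the same direction in all 3 lines. With SX-682, Mllt3 rose by 0.32, 0.28 and 0.52 log2 units in Melan-A, B16F0 and B16F10. Focad rose by 0.16, 0.50 and 0.28 in these lines (edgeR adjusted p of 0.0145 or lower in each for both genes).

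Across the untreated lines, 6 of the 9 members were higher and 2 lower in B16F0 than in Melan-A, beside 35.3% and 40.6% of all genes, with a median of 0.42 beside −0.06. In B16F10 against Melan-A, 5 were higher and 4 lower, beside 33.4% and 40.8% of all genes, with a median of 0.15 beside −0.10. In B16F10 against B16F0, 4 were higher and 4 lower, beside 30.8% and 31.2%, with a median of 0.04 beside −0.0017. These contrasts share libraries. Mtap and Amd1 were higher in both B16 lines, together with Mtr and Mtrr, and Mat2b and Mettl16 lower in both. Ahcy and Ahcyl1, by contrast, were high in B16F0 alone.

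The rest of the pathway is given by lists of genes, whose counts stand beside 23.4% of all genes higher and 24.7% lower in Melan-A, 25.1% and 25.0% in B16F0, and 25.5% and 25.3% in B16F10, and whose medians stand beside 0 over all genes in each line. A list gene whose change is given below was, unless marked, picked for passing the test in the same direction in all 3 lines. Its direction and adjusted p follow from that pick and are descriptions. In methionine salvage beyond Mtap, 3 of 6 genes rose and 1 fell in Melan-A, and 2 rose and 3 fell in each B16 line. The medians were 0.26, −0.07 and −0.05 log2 units in Melan-A, B16F0 and B16F10. Kyat1, an aminotransferase, rose by 1.003, 0.48 and 0.79, and Mri1, the isomerase of the step after MTAP, rose by 0.45, 0.53 and 0.48 (edgeR adjusted p of 2.9e-05 or lower in each line). In untreated cells, 5 of the 6 were higher in B16F0 and 6 of 6 in B16F10 than in Melan-A, beside 35.3% and 33.4% of all genes, with medians of 1.099 and 0.99 beside −0.06 and −0.10.

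In polyamine synthesis and breakdown, 4 of 10 genes rose and 3 fell in Melan-A, and 5 rose and 3 fell in each B16 line, with medians of 0.04, 0.15 and 0.15. Odc1, the ornithine decarboxylase that works beside AMD1, rose where Amd1 fell. It went from 300 and 303 to 457 and 460 CPM in Melan-A, from 307 and 304 to 599 and 592 CPM in B16F0, and from 334 and 320 to 703 and 708 CPM in B16F10. These rises were 0.60, 0.96 and 1.11 log2 units (SE 0.023 in each, edgeR adjusted p = 3.2e-19, 3.9e-24 and 8.6e-26). Paox, a polyamine oxidase, rose by 0.64, 0.64 and 0.87 (edgeR adjusted p = 3.5e-08, 6.6e-08 and 2.5e-10).

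Among 12 genes that supply folate and cobalamin to methionine synthase, 7 rose and 1 fell in Melan-A (23.4% and 24.7% of all genes), 7 rose and 4 fell in B16F0 (25.1% and 25.0%), and 3 rose and 4 fell in B16F10 (25.5% and 25.3%), with medians of 0.20, 0.21 and −0.07. Shmt2, the mitochondrial serine hydroxymethyltransferase, rose by 0.54, 0.55 and 0.73 log2 units (edgeR adjusted p = 2.7e-17, 1.0e-17 and 1.1e-20). Of 6 genes that remove homocysteine or adenosine, 4 were tested, as Bhmt and Bhmt2 did not pass the filter. None of them passed the test in the same direction in all 3 lines, beside 11.3% of all genes raised and 11.7% lowered in all 3. In that list 1 rose and 0 fell in Melan-A, 2 rose and 1 fell in B16F0, and 1 rose and 1 fell in B16F10. Cbs and Cth, the enzymes of transsulfuration, were singled out after their values were seen. The rise counted in Melan-A was that of Cbs, at 0 and 2 counts untreated and 8 and 8 counts treated, too few for a fold to be given. Cbs had 62 to 139 counts in B16F0 libraries and 1 to 10 in B16F10. Cth rose by 1.83 log2 units in B16F0 (5.17 and 4.39 CPM untreated, 17.4 and 16.7 CPM treated, edgeR adjusted p = 2.3e-11) and by 2.43 in B16F10 (0.794 and 1.05 CPM untreated, 4.86 and 5.10 CPM treated, adjusted p = 2.3e-11). In Melan-A, at 15 to 37 counts, its value was 0.45 (adjusted p = 0.336).

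Of 9 further SAM-using or liver-type enzymes, 4 were tested and 5, Mat1a among them, did not pass the filter. Of those 4, 2 rose and 1 fell in Melan-A and in B16F0, and 1 rose and 1 fell in B16F10. Nnmt, which methylates nicotinamide with SAM, rose by 0.59, 0.47 and 1.13 log2 units and Gamt, of creatine synthesis, fell by 0.54, 0.35 and 0.31 (edgeR adjusted p of 0.0011 or lower in each line). The 17 genes of N6-methyladenosine writing, erasing and reading were split: 5 rose and 8 fell in Melan-A, 6 and 6 in B16F0, and 5 and 5 in B16F10, with medians of −0.09, 0.07 and −0.03. Zcchc4 rose by 0.85, 0.95 and 0.76 and Mettl5 by 0.31, 0.28 and 0.57, both encoding methyltransferases of ribosomal RNA (edgeR adjusted p of 0.0022 or lower in each line).

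Among 8 factors described in Mat2a RNA processing or near METTL16, 1 rose and 4 fell in Melan-A, 4 rose and 3 fell in B16F0, and 2 rose and 2 fell in B16F10, with medians of −0.17, 0.08 and 0.03. Cpsf6, a subunit of the cleavage factor CFIm that takes part in Mat2a splicing, went from 96.3 and 95.2 to 58.5 and 57.7 CPM in Melan-A, from 97.9 and 92.4 to 46.0 and 45.0 CPM in B16F0 and from 102 and 101 to 60.9 and 61.8 CPM in B16F10. It fell by 0.72, 1.06 and 0.72 log2 units (edgeR adjusted p = 9.3e-17, 3.1e-20 and 9.6e-17). Larp7, a U6 and 7SK binding protein, fell by 0.56, 0.27 and 0.26 (adjusted p of 2.5e-05 or lower in each). Ythdc1, a nuclear reader of methylated RNA, was singled out after its values were seen because it moved in opposite directions, by −0.28 in Melan-A (adjusted p = 2.2e-07) and 0.30 in B16F0 (adjusted p = 1.0e-07), with −0.01 in B16F10 (adjusted p = 0.965).

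Of 8 genes of methionine and SAM transport and sensing, 4 rose and 1 fell in Melan-A, 5 rose and 2 fell in B16F0, and 4 rose and 3 fell in B16F10, with medians of 0.34, 0.23 and 0.21. Slc3a2 and Slc7a5 together form the large neutral amino acid transporter that imports methionine. In this list 3 genes rose and 1 fell in all 3 lines, and these 2 were picked from among them. Slc3a2 went from 244 and 248 to 792 and 793 CPM in Melan-A, from 235 and 235 to 687 and 669 CPM in B16F0 and from 218 and 217 to 971 and 990 CPM in B16F10, rises of 1.69, 1.53 and 2.17 log2 units (SE 0.022, 0.022 and 0.023, edgeR adjusted p = 1.2e-29, 2.8e-29 and 8.5e-33). Slc7a5 rose by 0.69, 0.89 and 1.25 (adjusted p = 2.7e-19, 2.9e-22 and 1.1e-25).

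**Figure D5:**
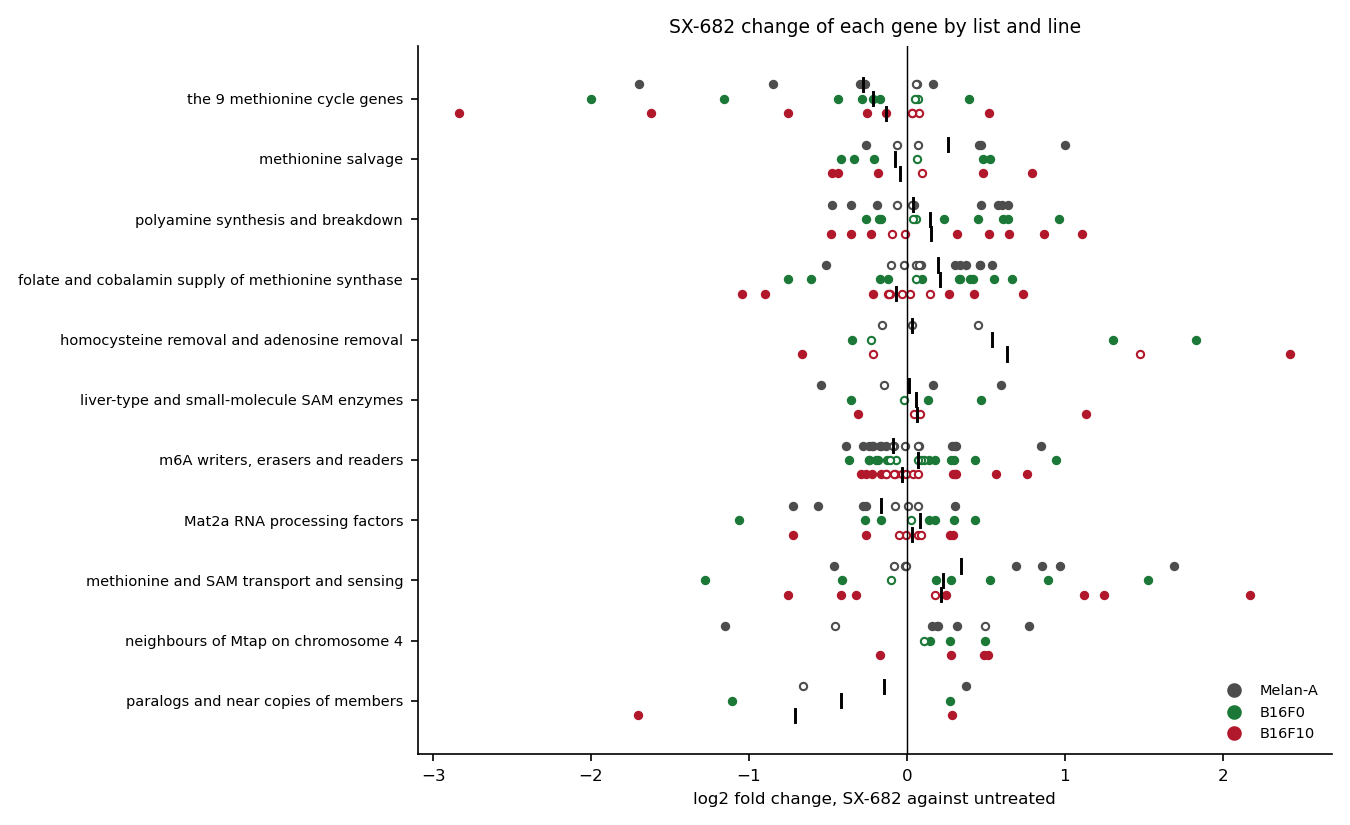
SX-682 change of each gene as a log2 fold change (horizontal axis), by list and line. Filled points passed an adjusted p under 0.05 and open points did not, and the upright black bar is the median of a list in a line, drawn for all lists but the neighbours of Mtap. A gene is left out in a line where no library of one of its groups exceeded 3 counts. Other than the neighbours of Mtap, the points of every list with more than 2 tested genes spread to both sides of 0 in each line, with Slc3a2 at 2.17 and Mat2a at −2.83 in B16F10.

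The transcripts whose level followed that of Mat2a most closely over the 12 libraries, by Pearson's r of log2 CPM among 9360 genes of mean log2 CPM of at least 3, were Rbmx (r = 0.992), Tm9sf3 (0.990), Ctnnb1 (0.990), Pgp (0.990) and Vps54 (0.990). Those most opposed to it were Slc7a1 (−0.991), Abca3 (−0.984) and Slc3a2 (−0.984). The libraries fall into treated and untreated groups, so these values describe a shared treatment contrast and carry no p. The SX-682 log2 fold changes of these 5 were closer to 0 than that of Mat2a in each line, from −0.21, −0.24 and −0.34 for Tm9sf3 to −0.64, −0.74 and −1.12 for Pgp in Melan-A, B16F0 and B16F10. Among the members, the value closest to Mat2a was that of Amd1 (r = 0.784), followed by Mettl16 (r = 0.680), while Mat2b stood at 0.06 and Ahcyl1 at −0.48.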

How the data were processed

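The authors deposited a single table of raw read counts per gene for the 12 libraries, without normalization, with mm10 (GRCm38) coordinates and a gene length that equals the exon union in GENCODE M21 for 33821 of 33821 matched identifiers. The submitters' processing notes name cutadapt, STAR and DESeq2 without versions. The counting program and its use of strand are not given in the sources used here.

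Groups came from the sample labels. Counts were fitted in R 4.3.3 with edgeR 4.0.16 (quasi-likelihood F-test, TMM scaling, expression filter leaving 18338 genes, prior count 0.125, all 12 libraries fitted together, no block, 6 residual degrees of freedom), with Benjamini-Hochberg adjustment over all genes at 0.05. The fit was tested on simulated data. The SE of a log2 fold change came from its F statistic. CPM used TMM factors and RPKM the deposited length. Library totals were 48876982 to 85322092 counts. Floors cover counting error only.

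The members and gene lists were chosen with earlier results of these data known. Named besides the members were at most 2 genes of each list that changed in the same direction in all 3 lines with the largest mean change, and the 5 transcripts most like and the 3 least like Mat2a. Genes outside this rule are marked in the text. A gene that the rule names is not reported here. Ranks of change were taken among 9909 genes of edgeR's average log2 CPM of at least 3. Nonamers were read from GENCODE M21 transcripts and promoters from RefSeq. Alternatives were DESeq2 1.42.0, RLE scaling, 2 other filters, a prior count of 2, TMM without the 50 highest genes, a separate fit per line, the replicate block and each library left out.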

Additional observations from a re-analysis of the deposited data

Results flagged for a closer look

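For 5 of the 7 members other than Mat2a and Ahcy the SX-682 change differed among the 3 lines in a joint F-test of the whole-table fit, which is why they are listed, at a rate of 47.4% among all genes tested. The distance between the lowest and the highest of the 3 log2 fold changes was 0.77 for Amd1 and 0.475 for Mtap, both lowest in B16F10 and highest in Melan-A. It was 0.353 for Ahcyl1, which rose most in B16F10 and least in Melan-A. It was 0.351 for Mtr, which fell in Melan-A and did not pass the test in either B16 line. It was 0.248 for Mat2b, which fell in B16F0 and did not pass in the other lines. Single pairs of lines were not tested.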

How the results depend on the processing

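The counts of genes and of members called stayed within 1.5 times their reported values under all of the 20 settings tried. Of 1066 values of single members under these settings, the SX-682 changes of Mat2a and Ahcy left out, 1035 kept their direction and their side of the threshold, 18 lost a call and 13 turned sign. All that turned were differences that did not pass the test: untreated Mat2a in B16F0 against Melan-A was −0.026 with DESeq2, −0.026 with RLE scaling and −0.034 over genes with at least 10 counts in every library. With a library left out, the SX-682 change of Mtrr ranged from −0.031 to 0.16 in Melan-A and from −0.054 to 0.11 in B16F10, that of Mtr in B16F10 from −0.023 to 0.088, the B16 contrast with Melan-A from −0.013 to 0.057 for Mettl16 and from −0.12 to 0.071 for Mtrr, and untreated Mtr in B16F10 against B16F0 from −0.0045 to 0.11. The 18 lost calls, of Mat2b, Mettl16, Ahcyl1 and Amd1, are described beside the results. The labels give the same replicate numbers to the groups of a line, but same-numbered libraries did not deviate together, with correlations of −0.028 (Melan-A), −0.011 (B16F0) and −0.0089 (B16F10) over 9361 genes. With the number as a replicate block, 8823, 9150 and 9302 genes were called in Melan-A, B16F0 and B16F10 in place of 8831, 9187 and 9321, and no member's call changed. In the lone library left where a replicate is dropped, the spread is assumed to be that of the other groups. Levels by library total in place of TMM factors were 0.935 to 1.08 times the reported ones, and 38 of 54 moved by more than 1 SD. At these depths a fold could be given for every member, while genes such as Cbs, at 0 to 10 counts in Melan-A and B16F10, were too shallow. The SE of the SX-682 change was 0.063 to 0.071 for Mtrr, whose counts went down to 1005, and 0.024 to 0.025 for Mtap. The part of counting noise in these SEs was not tested.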
